A study of Mus musculus with 61 samples.

Results

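The genes of cytosolic and mitochondrial protein synthesis described here are 50 translation factor and aminoacyl-tRNA synthetase genes, out of 5154 genes in a table of chromatin values at promoters and enhancers. They were chosen by symbol alone: initiation factors (Eif1 to Eif6), elongation factors (Eef1 and Eef2), Gspt and Pabpc genes, synthetases with a 1-letter amino acid code before "ars", Larp genes and Abce1. Eif4enif1 was left out. The 50 genes have 53 of the 5513 distinct start sites and 168 of the 14265 distinct enhancers in the table. The symbol rule also takes in genes that are not translation factors themselves: Eif2c1 is an older symbol of an Argonaute gene, Eif4ebp1 and Eif4ebp2 encode inhibitors, Eif2ak1, Eif2ak3 and Eef2k encode kinases, and Eef1e1 encodes a part of the multi-synthetase complex.

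The samples used here were mouse embryonic fibroblasts (MEFs) of E13.5 embryos, strain Black6-129X1/SvJ, genotype Col1a1::tetOP-OKSM ; R26-M2rtTA, at day 3 of reprogramming. In these cells doxycycline, at 2 ug/ml, switches on Oct4, Klf4, Sox2 and Myc through the reverse transactivator expressed from Rosa26, and all groups had ascorbate in serum/LIF embryonic stem (ES) cell medium. The knockdown groups were directed at CAF-1, a chaperone that places histones on newly copied DNA, by hairpins: Chaf1a.166 or Chaf1a.2122 for Sox2 ChIP-seq, both against its largest subunit, and a hairpin named only as CAF-1 for Sono-seq. The control groups carried a hairpin against Renilla luciferase, a gene that mouse cells lack. Sono-seq sequences the DNA that sonication frees from cross-linked chromatin, in which open regions are richer, and had 3 libraries for CAF-1 knockdown and 3 for Renilla. The labels do not say whether these came from separate cultures.

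The table gives 1 deposited value per region for CAF-1 knockdown and 1 for Renilla, in a unit that the sources used here do not state, so no spread between libraries can be given and no difference between the conditions was tested. Sox2 ChIP-seq had 1 immunoprecipitate and 1 input per hairpin, and gave lists of 15888 positions for Chaf1a.166, 19319 for Chaf1a.2122 and 17681 for Renilla. Read depth is unknown, and a gene without a listed position is one with none above the threshold of that list. RNA and the other samples of the series (49 of 61) were not analysed here, so neither the level of Chaf1a nor the identity of the cells was checked. Of the genes that mark cell types, the table holds 1 of 11 for fibroblasts (Fn1) and 6 of 7 for pluripotent cells, and it has no RNA values.

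As background, translation initiation starts when eIF4E binds the cap of an mRNA and recruits the helicase eIF4A, while eIF2 brings the initiator tRNA to the small ribosomal subunit together with eIF1, eIF1A, eIF3 and eIF5. The elongation factor eEF1A then delivers tRNAs that the synthetases have charged with their amino acids, eEF2 moves the ribosome along, and eRF3, made from Gspt1, takes part in termination. Cells adjust the pathway through 4E-binding proteins, which hold eIF4E back, and through kinases that phosphorylate the alpha subunit of eIF2. Myc is known to act on many of these genes through the E-box CACGTG, and Sox proteins bind cores such as ACAATG.

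The promoter sequences below are from the RefSeq promoter table of assembly GRCm38.p6, and run from 250 bases before an annotated start to 20 bases after it. Capitals mark the first transcribed base and each match, on either strand, of the E-box CACGTG, of the Sox core ACAATG and of TGATGNAA, a form of the element that the stress factor ATF4 binds. Eif1ad (initiation factor 1A domain containing), at chr19:5366563-5366832, plus strand, is shown because all 3 Sox2 lists have a position at its start. Eif1, which guards start codon choice, at chr11:100319699-100319968, plus strand, is shown for positions in both knockdown lists but not in Renilla. Eif4a2, encoding an isoform of the helicase eIF4A, at chr16:23107218-23107487, plus strand, had the second lowest promoter ratio and a Renilla position near its start. That position lies 223 bp after the mm9 start site, while the bases shown end 20 bases after the start.
Eif1ad: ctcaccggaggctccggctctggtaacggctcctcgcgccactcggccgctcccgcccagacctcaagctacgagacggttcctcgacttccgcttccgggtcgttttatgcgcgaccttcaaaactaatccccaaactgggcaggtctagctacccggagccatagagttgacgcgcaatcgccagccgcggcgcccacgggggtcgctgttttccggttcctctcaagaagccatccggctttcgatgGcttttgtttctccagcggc
Eif1: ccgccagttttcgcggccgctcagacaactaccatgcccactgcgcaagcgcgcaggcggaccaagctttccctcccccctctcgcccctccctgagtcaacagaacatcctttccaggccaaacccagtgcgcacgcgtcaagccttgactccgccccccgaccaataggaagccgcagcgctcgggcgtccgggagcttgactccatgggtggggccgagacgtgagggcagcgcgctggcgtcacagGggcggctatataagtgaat
Eif4a2: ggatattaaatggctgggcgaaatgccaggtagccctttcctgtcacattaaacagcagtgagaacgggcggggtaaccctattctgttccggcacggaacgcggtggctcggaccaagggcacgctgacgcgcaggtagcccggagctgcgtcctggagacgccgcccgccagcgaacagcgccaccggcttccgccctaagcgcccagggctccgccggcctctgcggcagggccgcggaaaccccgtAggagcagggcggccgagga
None of these holds any of the 3 motifs. The next 5 are shown for a motif that they hold. Eef2, encoding the translocation factor of elongation, at chr10:81176381-81176650, plus strand, has CACGTG beginning 43 bases before its start. Eif1b, a paralog of Eif1, at chr9:120492356-120492625, plus strand, has it 24 bases before. Eif3k, a subunit of eIF3, at chr7:28981869-28982138, minus strand, has it 44 bases before. Eif4e, the cap-binding protein, at chr3:138527018-138527287, plus strand, has it both 228 and 64 bases before. Yars, the cytosolic tyrosyl-tRNA synthetase, at chr4:129189653-129189922, plus strand, has TGATGCAA beginning at transcribed base 4.
Eef2: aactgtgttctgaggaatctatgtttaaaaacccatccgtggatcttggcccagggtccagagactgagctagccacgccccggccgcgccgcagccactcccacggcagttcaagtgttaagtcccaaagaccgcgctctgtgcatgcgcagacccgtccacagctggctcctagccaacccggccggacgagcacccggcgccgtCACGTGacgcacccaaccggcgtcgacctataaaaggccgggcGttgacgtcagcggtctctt
Eif1b: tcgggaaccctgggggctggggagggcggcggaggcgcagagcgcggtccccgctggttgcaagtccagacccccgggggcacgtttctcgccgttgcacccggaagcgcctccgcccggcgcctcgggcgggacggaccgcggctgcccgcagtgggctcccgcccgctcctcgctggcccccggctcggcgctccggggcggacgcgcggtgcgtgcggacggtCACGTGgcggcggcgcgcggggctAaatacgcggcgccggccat
Eif3k: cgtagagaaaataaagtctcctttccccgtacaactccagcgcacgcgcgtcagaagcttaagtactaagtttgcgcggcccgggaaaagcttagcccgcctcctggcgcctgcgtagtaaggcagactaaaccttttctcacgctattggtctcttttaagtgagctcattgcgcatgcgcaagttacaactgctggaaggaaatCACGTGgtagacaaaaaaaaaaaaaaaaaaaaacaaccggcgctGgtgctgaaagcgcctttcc
Eif4e: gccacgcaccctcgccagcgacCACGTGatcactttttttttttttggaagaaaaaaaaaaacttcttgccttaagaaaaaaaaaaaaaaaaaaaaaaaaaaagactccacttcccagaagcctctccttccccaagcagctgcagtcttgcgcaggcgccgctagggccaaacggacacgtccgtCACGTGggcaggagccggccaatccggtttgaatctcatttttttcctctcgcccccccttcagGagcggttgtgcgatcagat
Yars: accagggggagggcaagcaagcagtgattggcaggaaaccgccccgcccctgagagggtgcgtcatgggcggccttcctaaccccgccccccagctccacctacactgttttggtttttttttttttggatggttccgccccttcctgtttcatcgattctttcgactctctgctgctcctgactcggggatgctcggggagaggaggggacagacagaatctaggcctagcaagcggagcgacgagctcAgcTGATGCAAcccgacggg
The Eif4e window shown is that of 1 of its 2 annotated starts in the RefSeq table, and whether it is the start used in the table of chromatin values was not determined.

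The promoters were of ordinary level for the table and, on balance, slightly lower in CAF-1 knockdown. The median value of the 53 start sites was 0.142 in CAF-1 knockdown and 0.150 in Renilla, and that of all other promoters was 0.141 in CAF-1 knockdown and 0.143 in Renilla. The median member stood at percentile 58.5 of all promoters by mean value. In 36 of the 53 the CAF-1 value was below the Renilla value, or 67.9%, against 51.8% of all promoters in the table. The log2 ratios, CAF-1 over Renilla, had a median of -0.094 (95% interval -0.17 to -0.012, from order statistics over start sites), against -0.0088 for all other promoters. Set against other promoters of the same decile of levels, the median member differed by -0.082 on the log2 scale. The ratios were also a little more spread out, with an SD over start sites of 0.28 for members and 0.23 for all others. That interval takes start sites as independent, and it does not cover the spread between libraries. A slightly lower value in all cells and a much lower one in some of them cannot be told apart here.

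Large differences were counted from a log2 ratio of 0.32 in either direction. By that measure 11 of the 53 start sites were lower, or 20.8%, against 8.98% of all promoters, and 6 were higher, or 11.3%, against 6.68%. Dars was just inside the lower limit at -0.33 and Eif5b just outside at -0.29; at the upper limit Nars was inside at 0.33 and Eif4a1 outside at 0.30. With a pseudocount of 0.05 the counts were 5 lower, or 9.43%, against 2.9% of all promoters, and 2 higher, or 3.77%, against 2.21%. Of the 29 start sites above the median level of all promoters 18 were lower in CAF-1 knockdown, or 62.1%, against 47.9% of other promoters of that range, with a median of -0.062 against 0.012. Of the 24 at or below the median level 18 were lower, or 75%, against 55.4% of other promoters, with a median of -0.12 against -0.030.

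**Figure D1:**
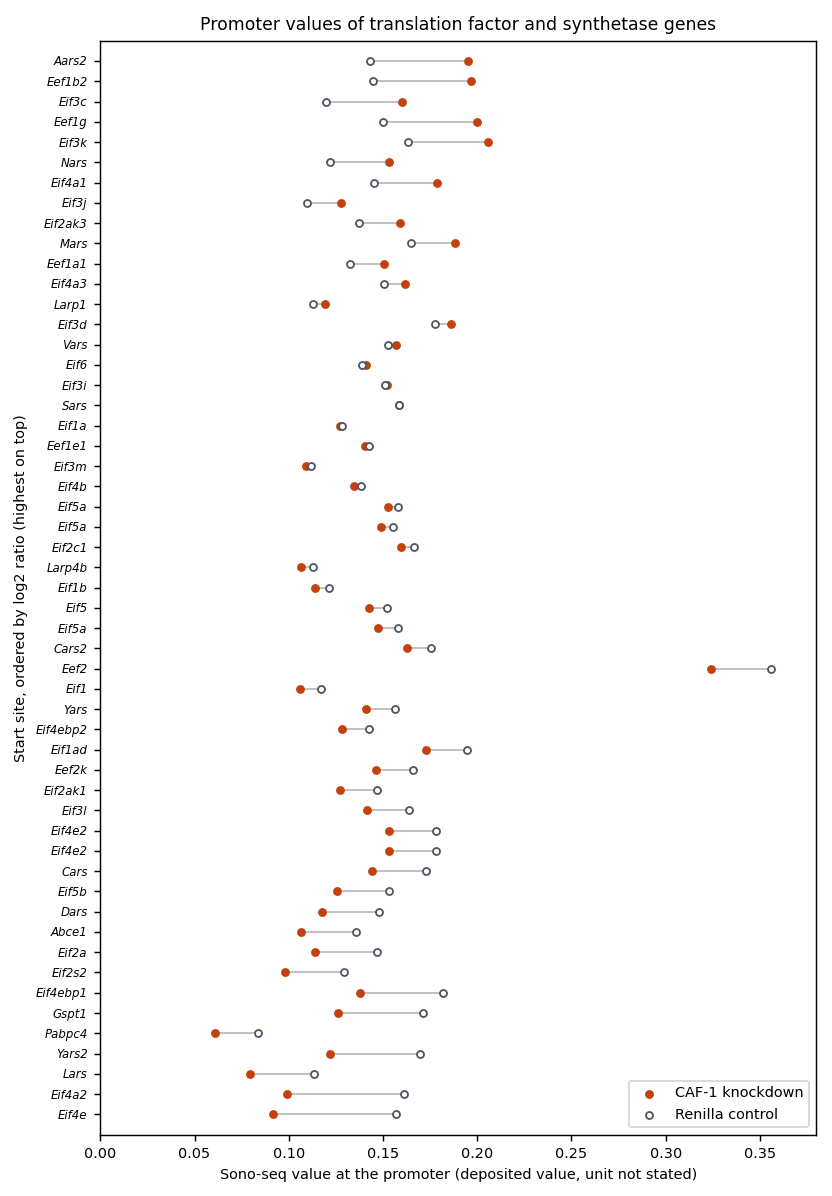
Deposited Sono-seq value at each of the 53 start sites (x axis, unit not stated), in CAF-1 knockdown (filled) and Renilla (open), ordered by log2 ratio with the highest on top, and with 1 value per condition. Eef2 lies far to the right of all others at 0.324 in CAF-1 knockdown and 0.356 in Renilla, and Eif4e and Eif4a2 have the widest gaps at the bottom.

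The lowest ratios were those of Eif4e and Eif4a2, followed by the synthetase genes Lars at -0.52 and Yars2 at -0.48. Eif4e and Eif4a2 are described here with the other Eif4a, Eif4b and Eif4e genes and the inhibitors, groups formed after the values had been seen. Of 7 start sites of the Eif4a, Eif4b and Eif4e genes 5 were lower, or 71.4%, against 51.8% of all promoters. The value at the Eif4e promoter was 0.0918 in CAF-1 knockdown and 0.157 in Renilla, a log2 ratio of -0.77. Eif4a2 had 0.0992 in CAF-1 knockdown and 0.161 in Renilla, a log2 ratio of -0.70. By mean value both were below the median promoter, at percentiles 23.45 and 31.13, and no other member had so large a ratio in either direction. Eif4e2, a second cap-binding protein that represses some mRNAs, had 0.153 in CAF-1 knockdown and 0.178 in Renilla at both of its start sites, which lie 25 bp apart. The inhibitors were lower too: Eif4ebp1 had 0.138 in CAF-1 knockdown and 0.182 in Renilla, a log2 ratio of -0.40, and Eif4ebp2 had a log2 ratio of -0.15. The other helicase genes were on the other side, with Eif4a1 at 0.179 in CAF-1 knockdown and 0.145 in Renilla, and Eif4a3, a core part of the exon junction complex, at a log2 ratio of 0.10. The helicase isoform genes Eif4a1 and Eif4a2 thus lay on opposite sides of 0, with log2 ratios of 0.30 and -0.70. Eif4b, a partner of the helicase, was near 0 with a log2 ratio of -0.034.

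Eif2s2, Eif2a, Eif5 and Eif5b, which act with the initiator tRNA or after it is in place, were lower, and subunits of eIF3 were mostly higher. These groups within the initiation factors were formed after the values had been seen, so their counts are descriptions only. Of all promoters 51.8% were lower in CAF-1 knockdown and 48.2% higher. Eif2s2, the beta subunit of eIF2, had 0.0979 in CAF-1 knockdown and 0.129 in Renilla. Eif2a, encoding eIF2A, a separate factor that can bring the initiator tRNA, had 0.114 in CAF-1 knockdown and 0.147 in Renilla. With Eif5b at a log2 ratio of -0.29 and Eif5, which triggers GTP hydrolysis by eIF2, at -0.096, all 4 were lower. The factors eIF1 and eIF1A help find the start codon. The 4 genes named after them were lower by small amounts, with Eif1ad, named only for an eIF1A domain, at -0.17, Eif1 at -0.15, Eif1b at -0.094 and Eif1a at -0.012. Of 7 eIF3 subunits, which form the scaffold on the small ribosomal subunit, 5 were higher: Eif3c had 0.160 in CAF-1 knockdown and 0.120 in Renilla, Eif3k had 0.206 in CAF-1 knockdown and 0.163 in Renilla, and Eif3j, Eif3d and Eif3i had log2 ratios of 0.22, 0.069 and 0.0056; with the conditions scaled to equal medians Eif3i turned lower, which left 4 of 7. The other two, Eif3l and Eif3m, had log2 ratios of -0.21 and -0.033. Eif5a, which helps ribosomes through difficult peptide bonds, had 3 start sites with log2 ratios between -0.099 and -0.049. Eif6, which keeps the large subunit from joining early, was at 0.026. Eif2c1 was at -0.062. Over all 29 initiation factor start sites, by symbol, 21 were lower and 8 higher, with a median of -0.094. The lower ones make up 72.4%, against 51.8% of all promoters. Among them are the 3 start sites of Eif5a and both start sites of Eif4e2, which have the same values, so these are not 29 separate genes.

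Among the elongation factors the 3 subunits of eEF1 in the table were higher, a group also formed after its values had been seen, beside 48.2% of all promoters: Eef1b2 (eEF1B alpha, which reloads eEF1A with GTP) had 0.197 in CAF-1 knockdown and 0.145 in Renilla, Eef1g (eEF1B gamma) had 0.20 in CAF-1 knockdown and 0.150 in Renilla, and Eef1a1 had 0.150 in CAF-1 knockdown and 0.133 in Renilla. Their log2 ratios were 0.44, 0.41 and 0.18. The Eef1b2 value is also that of Ndufs1, which starts 8 bp away, and cannot be assigned to either gene. Eef2 was the highest member in level, at percentile 99.98 of all promoters, and had 0.324 in CAF-1 knockdown and 0.356 in Renilla, a log2 ratio of -0.14. Eef2k, the kinase that shuts eEF2 off, was at -0.18, and Eef1e1 at -0.025. Gspt1 had 0.126 in CAF-1 knockdown and 0.171 in Renilla, a log2 ratio of -0.44, and Abce1, the ATPase that takes ribosomes apart after termination, had 0.106 in CAF-1 knockdown and 0.136 in Renilla, a log2 ratio of -0.35. Both genes for the end of translation were thus past the limit of 0.32 on the lower side, as were 8.98% of all promoters. This pair too was formed after its values had been seen. Abce1 starts 79 bp from Anapc10, which had a log2 ratio of -0.35 as well, so its value cannot be assigned to either gene.

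**Figure D2:**
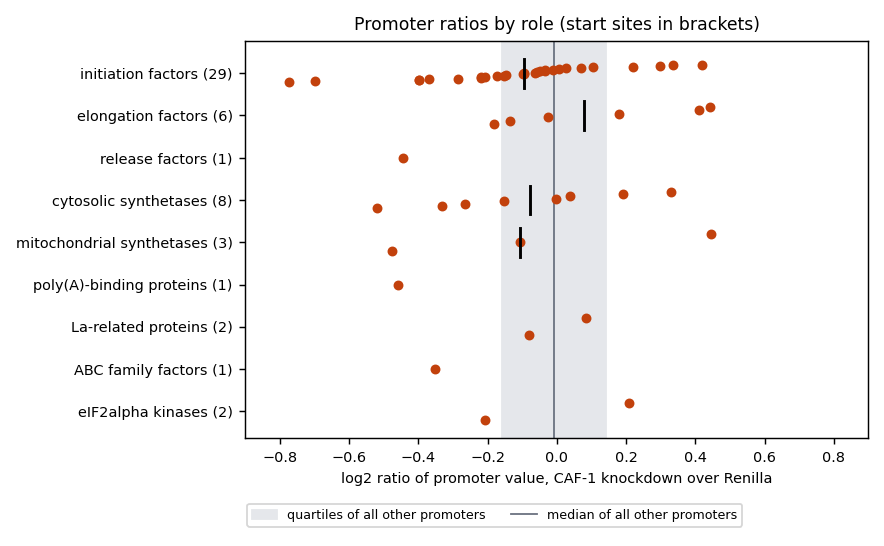
Log2 ratio of the promoter value, CAF-1 knockdown over Renilla (x axis), for each start site by role as read from the symbol, with a black bar at the median of roles with 3 or more start sites. The grey band holds the middle quartiles of all other promoters and the line their median of -0.0088, and the initiation factors lie mostly to its left with a median of -0.094.

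Synthetases had wide ratios in both directions. Lars, which charges leucine tRNA, had 0.0792 in CAF-1 knockdown and 0.114 in Renilla, a log2 ratio of -0.52, and Dars (aspartate) had a ratio of -0.33. Nars (asparagine) had 0.153 in CAF-1 knockdown and 0.122 in Renilla, a log2 ratio of 0.33. Of 8 cytosolic synthetase promoters 5 were lower, or 62.5%, against 51.8% of all promoters, with a median of -0.077. Mars (methionine), the highest of them in level, had 0.188 in CAF-1 knockdown and 0.165 in Renilla. Sars (serine), with 0.158 in both, and Vars (valine), at a log2 ratio of 0.037, barely differed, while Cars (cysteine) and Yars had -0.27 and -0.15. Mitochondrial synthetases were wide apart too: Aars2 (alanine) had the highest ratio of all members, with 0.195 in CAF-1 knockdown and 0.143 in Renilla, or 0.45 on the log2 scale. Yars2 (tyrosine) had 0.122 in CAF-1 knockdown and 0.170 in Renilla, or -0.48, and Cars2 (cysteine) was at -0.11.

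Among the remaining members, Pabpc4, a poly(A)-binding protein, had the lowest level of all, at percentile 1.47, with 0.0608 in CAF-1 knockdown and 0.0835 in Renilla. The eIF2alpha kinases lay on opposite sides of 0, with Eif2ak3 (PERK, the kinase of endoplasmic reticulum stress) at 0.159 in CAF-1 knockdown and 0.138 in Renilla, and Eif2ak1 (the heme-regulated kinase) at 0.127 in CAF-1 knockdown and 0.147 in Renilla. The La-related genes differed little: Larp1, which binds messages with a pyrimidine-rich start, had a log2 ratio of 0.084, and Larp4b had -0.082. Both were low in level, at percentiles 14.4 and 10.1.

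Other genes of protein synthesis had medians nearer to 0 or above it. Among 51 promoters of 49 cytosolic ribosomal protein genes, 26 were higher and 25 lower, with a median log2 ratio of 0.0037 (95% interval -0.045 to 0.11). Of all promoters 48.2% were higher. Ratios of at least 0.32 on the log2 scale were found at 2 on the lower side, or 3.92%, against 8.98% of all promoters. On the higher side there were 6, or 11.8%, against 6.68% of all promoters and 11.3% of the members' start sites. With the conditions scaled to equal medians the ribosomal median was -0.016, with 23 higher and 28 lower. The difference between the translation factors and the ribosomal proteins was not tested. Of 5 other synthetase parts, Aimp2 and Farsa are in the table and had log2 ratios of 0.13 and 0.14. Of 8 mitochondrial translation factors 3 are in the table, all higher as deposited and 2 higher with equal medians, with Mtrf1 highest at 0.24. Of 15 regulators of translation under stress or growth 7 are in the table, with 4 lower and 3 higher (2 with equal medians). Past 0.32 were Tsc2, which holds mTOR back, at 0.37, and Rps6kb1, the ribosomal protein S6 kinase, at 0.36.

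At the enhancers assigned to members, CAF-1 knockdown and Renilla were nearly even. The deposited set of regions is labelled mESC, for mouse ES cells, while the cells assayed were fibroblasts under reprogramming. Whether these enhancers are active in the cells assayed, or act on the genes assigned to them there, was not tested. The median value over 168 enhancers was 0.141 in CAF-1 knockdown and 0.139 in Renilla, 85 were higher and 83 lower in the knockdown, and the median log2 ratio was 0.0098 (95% interval -0.031 to 0.046). The lower ones make up 49.4%, against 44.7% of all enhancers. For all other enhancers the median was 0.028. Log2 ratios of 0.32 or more were found at 16 enhancers of members, or 9.52%, against 10.3% of all enhancers, and ratios of -0.32 or less at 10, or 5.95%, against 6.58%. Both shares are near those of all enhancers. Only 79 of the 168 are assigned to 1 gene, and a single enhancer is assigned to as many as 6 genes, so many values belong as much to a neighbour as to the member. Over those 79 the median log2 ratio was -0.015.

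**Figure D3:**
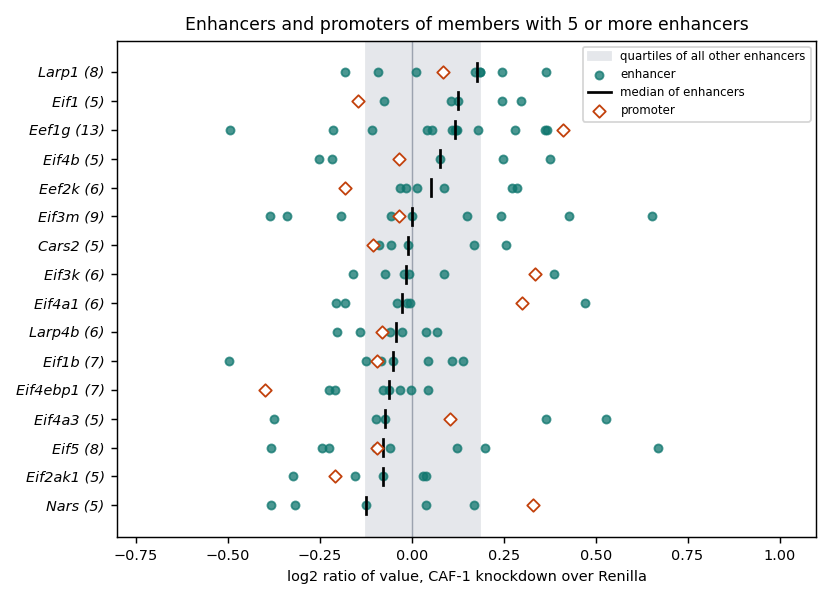
Log2 ratio, CAF-1 knockdown over Renilla (x axis), of each enhancer (dots) and of the promoter (diamonds; the median where a gene has several start sites) for the 16 members with at least 5 enhancers, ordered by the median of the enhancers (black bars). Enhancers of 1 gene lie on both sides of 0 in every row, and promoters often lie away from them, as for Eif4ebp1 at -0.40 and Nars at 0.33.

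Members had between 1 and 13 enhancers, with a median of 3. Eef1g, with 13, had 10 enhancers higher in CAF-1 knockdown and log2 ratios from -0.49 to 0.37, and its promoter was higher too. All of these enhancers but the one 6570 bp from its start are also assigned to Ahnak. Eif3m, with 9, all shared with other genes, ranged from -0.38 to 0.65. Eif5 and Larp1, with 8 each, ranged from -0.38 to 0.67 and from -0.18 to 0.36. The highest single enhancer, 24861 bp from the Eif5 start, had 0.204 in CAF-1 knockdown and 0.128 in Renilla. The second, assigned to Eif3m and Prrg4, had 0.144 in CAF-1 knockdown and 0.0915 in Renilla, and the third, assigned to Eef2 and Pias4, 0.187 in CAF-1 knockdown and 0.129 in Renilla. The lowest, assigned to Eif2a and Serp1, had 0.0851 in CAF-1 knockdown and 0.132 in Renilla, followed by an Eif1b enhancer with 0.106 in CAF-1 knockdown and 0.149 in Renilla and by 1 of Eef1g and Ahnak with 0.131 in CAF-1 knockdown and 0.184 in Renilla.

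Promoter and enhancer ratios of a gene were nearly unrelated. Across the 50 genes, whose ratios all come from the same libraries, the rank correlation (Spearman) of the promoter ratio with the median enhancer ratio was 0.038, and 0.020 across all other genes. Both were lower in 17 members and both higher in 7, while in 16 the promoter was lower and the enhancers higher. As shares of members these are 34, 14 and 32%, and for all other genes, in the same order, 21.6, 28.9 and 30.1%. Gspt1 is of the last kind, with its promoter at -0.44 and its 1 enhancer, shared with Rsl1d1, at 0.26. So is Abce1, with its promoter at -0.35 and its 3 enhancers, all shared with Anapc10 and Otud4, from 0.26 to 0.39. At Eif2a both kinds were lower, with its promoter at -0.37 and all 3 enhancers, each shared with Serp1, between -0.63 and -0.28. Its start lies 64 bp from that of Serp1, so these values cannot be assigned to either gene.

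Sox2 positions within 10 kb of a start site were found for 13 of 50 members in the Chaf1a.166 list, or 26.0% (95% exact Clopper-Pearson interval 14.6 to 40.3%), 13 in the Chaf1a.2122 list, also 26.0%, and 11 in the Renilla list, or 22.0% (11.5 to 36.0%). The shares of all genes in the table were 28.5% for Chaf1a.166, 33.4% for Chaf1a.2122 and 29.3% for Renilla, and those of other genes weighted to the members' promoter levels were 28.5%, 33.4% and 29.4% in the same order. In all, 18 members had a position in at least 1 list, or 36.0%, against 41.3% of all genes. The members' shares were below those of all genes in each list, and each share of other genes lay within the members' interval. These intervals cover counting error only. At other distances the order differed by list. Within 500 bp of a start the share of members was 12% in Chaf1a.166, against 7.54% of other genes, 8.0% in Chaf1a.2122, against 9.56%, and 8.0% in Renilla, against 7.86%, and 10 members had a position in at least 1 list, or 20.0%, against 13.3%. Within 50 kb the members' share was above that of other genes in each list, at 74.0% against 65.7% for Chaf1a.166, 72.0% against 70.5% for Chaf1a.2122 and 70.0% against 66.5% for Renilla. The lower share at 10 kb therefore depends on the distance chosen.

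**Figure D4:**
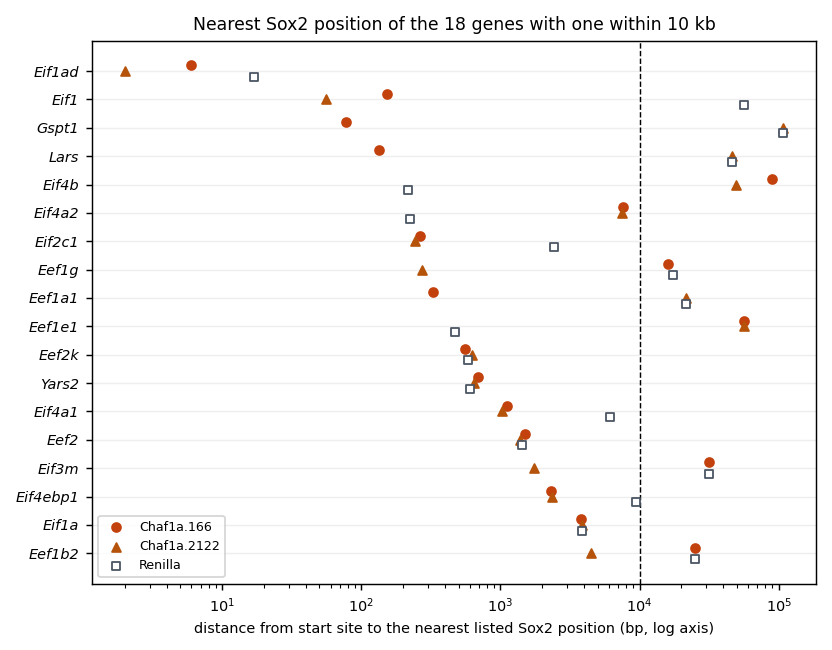
Distance from the start site to the nearest listed Sox2 position (x axis, bp, log scale) for the 18 members with a position within 10 kb (dashed line), in the Chaf1a.166 (circles), Chaf1a.2122 (triangles) and Renilla lists (squares). Symbols of the 3 lists nearly coincide for Eef2k, Yars2, Eef2 and Eif1a, all 3 lie between 2 and 17 bp for Eif1ad, and at least 1 list stands apart for the others.

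By role as read from the symbol, and beside 41.3% of all genes, all 6 elongation members had a position within 10 kb in at least 1 list, Eef2k and Eef1e1 included. By list these were 3 in Chaf1a.166, 4 in Chaf1a.2122 and 3 in Renilla, beside 28.5, 33.4 and 29.3% of all genes. Only Eef2 and Eef2k had one in all 3 lists. Eef1a1, Eef1b2, Eef1e1 and Eef1g had one in a single list each, with ranks at 70.0, 78.5, 71.8 and 74.8% of it. Within 10 kb at least 1 list also had a position for 9 of 26 initiation members, or 34.6%. The same held for 1 of 8 cytosolic synthetases (Lars), 1 of 3 mitochondrial synthetases (Yars2) and Gspt1. Lars had it in Chaf1a.166 only, with a lower bound of enrichment of 0.291. Dars and Sars had positions in all 3 lists just past 10 kb. Those of Dars lay at 10378 to 10417 bp, with ranks at 4.71 to 8.74% of their lists. Those of Sars lay at 11454 to 11461 bp, with ranks at 1.46 to 3.61%. Eif2a, Eif2s2, Eif5 and Eif5b had none. Lists of 1 hairpin each cannot show how far a second immunoprecipitate of the same hairpin would repeat them.

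All 3 lists had a position within 10 kb of 9 members, or 18.0%, against 20.8% of all genes: Eef2, Eef2k, Eif1a, Eif1ad, Eif2c1, Eif4a1, Eif4a2, Eif4ebp1 and Yars2. At Eif1ad the positions lay 6 bp from the start in Chaf1a.166, 2 bp in Chaf1a.2122 and 17 bp in Renilla, at the promoter printed above. Eef2 had them at 1494, 1387 and 1432 bp in the same order of lists, Yars2 at 692, 644 and 602 bp, Eef2k at 553, 622 and 586 bp, and Eif1a at 3817, 3839 and 3827 bp. The strongest position near any member belonged to Eif2c1, between 2435 and 2437 bp from its start, with rank 91 of 15888 in Chaf1a.166, 109 of 19319 in Chaf1a.2122 and 171 of 17681 in Renilla, by the authors' own score. The nearest position was below the median rank of its list for 11 of 13 members in Chaf1a.166, 8 of 13 in Chaf1a.2122 and 8 of 11 in Renilla, with a median rank at 70.0% of the list in Chaf1a.166, 61.0% in Chaf1a.2122 and 64.6% in Renilla. The ranks of positions near other genes are not given here, so low ranks cannot be read as particular to the members.

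Being near Sox2 in all lists did not always mean the same place. Where positions within 200 bp of each other were joined, 7 members had a place held by all 3 lists, or 14.0%, against 19.6% of all genes. Another kind of place, held by both knockdown lists with no Renilla position within 200 bp, lay within 10 kb of 5 members, or 10.0%, against 4.29% of all genes: Eif1, Eif2c1, Eif4a1, Eif4a2 and Eif4ebp1. At Eif1 it was 152 bp from the start in Chaf1a.166 and 56 bp in Chaf1a.2122, and the nearest Renilla position was 56188 bp away. At Eif2c1 it lay at 266 bp in Chaf1a.166 and 244 bp in Chaf1a.2122, beside a place held by all 3 lists at 2435 to 2437 bp. At Eif4a1 it lay at 1110 bp in Chaf1a.166 and 1026 bp in Chaf1a.2122, and Renilla had its nearest at 6119 bp. At Eif4a2 the knockdown positions lay at 7568 and 7512 bp, while Renilla had 1 at 223 bp. At Eif4ebp1 it lay at 2309 and 2362 bp, beside a shared place at 9371 to 9428 bp. At the 5 members the positions without Renilla ranked from 49.6 to 90.6% of the list in Chaf1a.166 and from 43.8 to 77.3% in Chaf1a.2122. Higher percentages are weaker positions. Whether Renilla had signal there just below the threshold of its list was not tested. Places held by Renilla and Chaf1a.2122 without Chaf1a.166 were found at 1 member, Eef2k, or 2.0%, against 4.64% of all genes, and none by Renilla and Chaf1a.166 without Chaf1a.2122, against 2.79%. This count by place was added after the positions had been seen, and with 5 genes it is a description.

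Counted by gene, both knockdown lists but not Renilla had a position within 10 kb of 1 member, Eif1, or 2.0%, against 2.99% of all genes. No member had Renilla with Chaf1a.166 alone or Renilla with Chaf1a.2122 alone, against 1.69% and 3.51% of all genes. Positions of a single list lay near 8 members. Eef1a1 (330 bp), Gspt1 (77 bp) and Lars (135 bp) had one in Chaf1a.166 only, or 6.0% of members against 2.97% of all genes. Eef1g (275 bp), Eif3m (1736 bp) and Eef1b2 (4478 bp) had one in Chaf1a.2122 only, or 6.0% against 6.05%. Eif4b (217 bp) and Eef1e1 (473 bp) had one in Renilla only, or 4.0% against 3.26%. Of these 8 positions, 6 were within 500 bp of the start, and their ranks lay between 50.3 and 83.0% of their lists, so each was below the median rank. Distances and ranks of such positions near other genes are not given here for comparison. The promoter ratios had similar medians with and without Sox2 nearby, while the shares of lower ones were further apart. The 18 start sites of members near at least 1 list had a median log2 ratio of -0.099 with 14 lower, or 77.8%. The 35 start sites of members near no list had -0.094 with 22 lower, or 62.9%. Among other promoters 54.0% were lower near at least 1 list and 49.9% near none, with medians of -0.018 and 0.0006. Set against other promoters of the same decile of levels, the median differences of members were -0.095 near Sox2 and -0.056 near none. These differences were not tested. At the members' enhancers a Sox2 position within 500 bp was found at 8 of 168 in Chaf1a.166, or 4.76%, against 3.33% of all enhancers. There were 9 in Chaf1a.2122, or 5.36%, against 3.65%, and 10 in Renilla, or 5.95%, against 3.2%. In at least 1 list there were 11, or 6.55%, against 4.78% of all enhancers.

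Promoter sequence was compared for the 41 members with an entry in the RefSeq table, which gives 53 windows from 250 bases before to 50 after a start, because some genes have several starts. Cars, Eef1g, Eif1a, Eif3i, Eif4ebp1, Eif6, Lars, Nars and Vars had no entry. By base composition the windows were like those of the other genes in the Sono-seq table, with a median GC content of 61.7% in both, and the observed over expected CpG ratio was 0.87 against 0.778. The palindrome CACGTG was in 17.0% of the members' windows, against 7.15% of all promoters and 10.4% of promoters of genes in the Sono-seq table. Counted by gene it was in 7 of 41 members, or 17.1%, against 12.4% of genes in the Sono-seq table, with 18.8% for ribosomal protein genes. The count by gene is the plainer one, since Eif5a, Eef2k, Eif4e2 and 3 other members have more than 1 window. The members were Eef2, Eef2k, Eif1b, Eif3k, Eif4a1, Eif4e and Eif5a, and they span log2 promoter ratios from -0.77 to 0.34.

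ACAATG, searched on both strands, was in 13.2% of the members' windows and 12.6% of all promoters, with 6.99% for genes in the Sono-seq table. By gene it was in 5 of 41 members, or 12.2%, against 14.3% of all genes and 8.47% of genes in the Sono-seq table, since Eif4e2 holds 3 of the 7 windows. Of the 10 members with a Sox2 position within 500 bp of a start, 8 have a window, and it was in 0 of these 8, among them Eif1ad, Eif1 and Eif4a2 printed above. That says only that these letters are not in those windows. By their mm9 start sites, the positions of Eef1a1 (330 bp before), Eef1e1 (473 bp after) and Eif4a2 (223 bp after) lie outside such a window. For these genes the window could not show a core at the position itself. TGATGNAA was in 3.77% of the members' windows, those of Yars and Eef2k, against 3.97% of all promoters and 2.06% of promoters of genes in the Sono-seq table. By gene these are 2 of 41 members, or 4.88%, against 4.51% of all genes and 2.48% of genes in the Sono-seq table. A C followed by at least 4 pyrimidines exactly at the annotated start, the form of messages controlled through mTOR and Larp1, was in 0 of 53 windows, against 2.51% of all promoters and 17.9% of ribosomal protein promoters. Several factors of elongation are known for such a start, and the result depends on the annotated base: allowing 5 bases either side, it was in 13.2% of the members' windows, against 18.3% of all promoters, 19.1% of promoters of genes in the Sono-seq table and 41.0% of those of ribosomal proteins. CACGTG reads the same on both strands, and none of the motifs contains another.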

How the data were processed

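Sono-seq values were deposited by the authors as 1 score per region for CAF-1 knockdown and 1 for Renilla, on mm9 per the labels' builds, without a stated unit, scaling or way of making 1 value of 3 libraries. The deposited Sox2 lists give, per the file headers, an enrichment ratio over input with a lower bound, a q-value (at most 0.000644), an E-value and a score per position, which are the authors' values for single positions. The submitters' processing notes name BWA 0.7.8 and Bowtie, with no role for either. The name of the position caller was not given in the sources used here.

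Log2 ratios of CAF-1 over Renilla were computed over distinct start sites and enhancers without a pseudocount, since no value was 0. Log2 ratios of at least 0.32 in size, a round fold before the log, were counted. Nearness to Sox2 meant 10 kb from a start site or 500 bp from an enhancer. Intervals are from order statistics for medians and exact Clopper-Pearson for shares, at 95%. With no value per library, only descriptions were made. Computing used Python 3.11.15, pandas 2.3.3 and scipy 1.17.1, and was tested on simulated data. RefSeq promoters (GRCm38.p6) were matched by gene ID, all 50 members having one, and mm9 coordinates were not converted.

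The members and lists were chosen with earlier results of these data known. Genes were named by a rule: members by their Sox2 lists, the 5 highest and 5 lowest promoter ratios, the 3 highest and lowest enhancer ratios and promoter levels, the 3 with most enhancers (a tie gave 4), and the highest level of each role. Others complete a complex or role, and were added with their values known, as were the places of Sox2, the search among neighbours, and the relation of promoters to enhancers. Alternatives covered scaling, pseudocounts, levels, members left out, distances and list thresholds.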

Additional observations from a re-analysis of the deposited data

How the results depend on the processing

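The median promoter ratio kept its direction under the 11 alternatives run, between -0.11 with equal medians over all regions and -0.062 above the median level; the interval of the last reached 0.069. Without Eif4e, without Eif4a2 and without promoters shared within 1000 bp it was -0.088, -0.088 and -0.082. With equal medians, which shifts all ratios by 0.019, 37 of 53 start sites were lower, with 4 past 0.32 on the higher side (7.55%, all promoters 5.8%) and 11 on the lower (20.8%, all promoters 10.4%); a pseudocount of 0.05 gave 2 on the higher (3.77%, 2.21%) and 5 on the lower (9.43%, 2.9%). The median enhancer ratio, near 0, turned to -0.0095 with equal medians, -0.015 over enhancers of 1 gene, -0.013 with 1 value per gene and -0.0001 without Eif2ak, Larp and Abc members.

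Counts near Sox2 depended on the distance and the threshold. Within 2 kb, 10 members were near Chaf1a.166 (20.0%, other genes 13.8%), 9 near Chaf1a.2122 (18.0%, 16.9%) and 7 near Renilla (14.0%, 14.2%), with 4 near all 3 lists (other genes 8.5%) and 3 near both knockdown lists only (1.78%). Within 50 kb, where members were above other genes in each list, 37 were near Chaf1a.166 (other genes 65.7%), 36 near Chaf1a.2122 (70.5%), 35 near Renilla (66.5%), 31 near all 3 lists (55.8%) and 1 near Renilla only (3.12%). Where the lower bound of enrichment was 2 or more, 6 were near Renilla (other genes 19.9%), 5 near all 3 lists (11.8%), 2 near both knockdown lists only (2.61%) and 1 near Renilla only (3.23%), and 3 members had a place of both knockdown lists without Renilla (3.04%). Over the last 150 bases ACAATG was in 1 of the members' windows, or 1.89%. The share was 6.33% of all promoters and 3.09% of promoters of genes in the Sono-seq table. A pyrimidine start within 5 bases was in 13.2% of the members' windows, against 18.3% of all promoters. The cause was not tested.

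No paired analysis was possible because the table has no value per library; leaving out single libraries was not run, as such values were not at hand. Read depth is unknown, and the differences between conditions carry no replicate error.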

Other observations

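Some member promoters are shared with a neighbouring gene. A start site of another gene lay within 1000 bp of 8 of 50 members, or 16.0%, against 18.0% of all other genes. Eef1b2 starts 8 bp from Ndufs1, a subunit of respiratory complex I, and both had 0.197 in CAF-1 knockdown and 0.145 in Renilla. Eif2a starts 64 bp from Serp1, with log2 ratios of -0.37 and -0.36, and Abce1 starts 79 bp from Anapc10, a subunit of the anaphase-promoting complex, with -0.35 for both. Eif5b lies 801 bp from Txndc9, with -0.29 and -0.36. Eif1ad lies 167 bp from a start of Banf1, which encodes a DNA-bridging protein of the nuclear envelope, with -0.17 and -0.16, so the Sox2 positions at Eif1ad are close to Banf1 as well. Tmed7 beside Eif1a, S100pbp beside Yars and 2510006D16Rik beside Eif3i were the other neighbours, with log2 ratios of -0.0064, -0.20 and -0.0007.

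Among the regulators outside the symbol rule, Ddit3, a stress factor, had a Renilla position 67 bp from its start and its nearest knockdown positions at 20691 bp in Chaf1a.166 and 20733 bp in Chaf1a.2122, and Ppp1r15b, which helps reverse eIF2alpha phosphorylation, had a Chaf1a.2122 position at 110 bp alone. Mtrf1l, a mitochondrial release factor gene, had positions in all 3 lists, at 1114 bp in Chaf1a.166, 1112 bp in Chaf1a.2122 and 1107 bp in Renilla. Among the members' enhancers, 1 of Eif3m, shared with Ccdc73 and Qser1, had Sox2 positions within 26 bp in all 3 lists and a log2 ratio of -0.38. An enhancer of Larp1 had a position 15 bp away in Chaf1a.166, with the nearest at 183902 bp in Chaf1a.2122 and 170185 bp in Renilla.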
